A study of Mus musculus with 8 samples.

Results

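Imprinted genes are expressed from only 1 of the 2 parental copies, and 10 of them that act on growth were read out in uterine stromal cells of the mouse: H19, Meg3, Dlk1, Peg3, Mest, Ndn, Plagl1, Grb10, Peg10 and Zdbf2. They were chosen by symbol, with earlier results of these data known, and all 10 are among the 23420 gene symbols of the count tables. Polyadenylated RNA was sequenced from the stromal cells of the uterus at day 3, with the genotype Erbb3f/f on the labels of 4 libraries and Erbb3d/d on those of the other 4. In mouse nomenclature f is the usual sign for a floxed allele and d for its Cre-deleted form. The labels give neither the Cre line, nor the age of the females, nor the event from which the day is counted, and they do not say whether a library is 1 female or a pool. The p-values therefore measure the spread between these libraries, which may in part be technical.

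Imprinting is set by DNA methylation laid down differently in egg and sperm, and the mark is kept through the life of the animal by proteins such as ZFP57 and DNMT1. Many imprinted genes are strongly expressed in the growing embryo and placenta and fall after birth, and a set of them has been described as a network that changes together, with the zinc finger protein PLAGL1 (also called ZAC1) as one of its regulators. Paternally expressed members such as Mest, Peg3, Peg10, Plagl1 and Dlk1 tend to promote growth in the embryo or placenta, or to alter maternal care and metabolism, while the maternally expressed H19 and Grb10 tend to restrain growth.

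The promoter windows of the members are shown first, as the sequence around transcript starts. The imprint need not act through these windows, and its control regions were not examined. RefSeq windows of 300 bases on GRCm38.p6 ran from 250 before to 50 after a transcript start. They were found for 8 of the 10 members, 13 windows in all, and not for H19 and Peg10. Capitals mark 2 motifs searched on both strands: GGGGCCCC, a sequence bound by PLAGL1, and TGCCGC, which ZFP57 binds when its CpG is methylated and which reads GCGGCA when it lies on the other strand. The motifs do not overlap in any window printed. These 5 windows belong to the 1 of these 8 members with the PLAGL1 motif, to PLAGL1's own gene, and to members whose levels are taken up below.

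Peg3, chr7:6730370-6730669, minus strand: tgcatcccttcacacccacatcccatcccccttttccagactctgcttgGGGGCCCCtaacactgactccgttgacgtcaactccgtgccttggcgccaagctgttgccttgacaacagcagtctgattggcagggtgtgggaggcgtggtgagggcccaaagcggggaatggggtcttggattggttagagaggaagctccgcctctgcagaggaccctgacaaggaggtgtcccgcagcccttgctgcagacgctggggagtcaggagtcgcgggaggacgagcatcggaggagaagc
Plagl1, chr10:13090582-13090881, plus strand: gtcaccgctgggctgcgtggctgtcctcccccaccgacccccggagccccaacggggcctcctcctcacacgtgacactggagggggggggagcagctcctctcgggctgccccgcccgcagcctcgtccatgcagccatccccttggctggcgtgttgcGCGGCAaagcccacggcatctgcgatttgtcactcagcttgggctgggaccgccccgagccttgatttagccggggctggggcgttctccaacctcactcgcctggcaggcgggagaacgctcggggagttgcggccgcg
Mest, chr6:30737800-30738099, plus strand: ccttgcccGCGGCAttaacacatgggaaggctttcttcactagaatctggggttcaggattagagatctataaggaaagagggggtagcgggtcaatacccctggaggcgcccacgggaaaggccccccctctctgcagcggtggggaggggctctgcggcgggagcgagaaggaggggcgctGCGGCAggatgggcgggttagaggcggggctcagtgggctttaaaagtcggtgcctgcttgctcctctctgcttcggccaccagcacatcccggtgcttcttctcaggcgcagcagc
Zdbf2, chr1:63200108-63200407, plus strand: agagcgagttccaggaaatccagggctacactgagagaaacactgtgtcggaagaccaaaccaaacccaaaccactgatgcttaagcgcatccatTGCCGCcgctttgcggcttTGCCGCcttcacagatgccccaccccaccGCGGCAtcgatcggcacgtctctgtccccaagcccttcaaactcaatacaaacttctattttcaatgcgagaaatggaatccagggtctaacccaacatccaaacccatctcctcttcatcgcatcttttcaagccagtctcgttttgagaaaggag
Meg3, chr12:109540746-109541045, plus strand: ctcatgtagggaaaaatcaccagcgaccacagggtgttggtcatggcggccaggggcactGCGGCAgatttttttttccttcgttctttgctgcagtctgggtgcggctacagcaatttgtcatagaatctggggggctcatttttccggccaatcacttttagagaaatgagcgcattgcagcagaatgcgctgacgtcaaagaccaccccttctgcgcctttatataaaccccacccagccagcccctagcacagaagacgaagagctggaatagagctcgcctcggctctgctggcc

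GGGGCCCC was found in 1 of the 13 windows, that of Peg3, and in 1.08% of all 32851 promoter windows of the table. TGCCGC was found in 6 of the 13 windows, which belong to 5 members, and in 11.6% of all windows. Of those 6 windows 2 are Mest windows that start 3 bases apart and hold the same matches. The Mest window shown holds the motif 2 times. The Zdbf2 window shown holds it 3 times, but lies upstream of the span of Zdbf2 given below, within that of Gpr1 (chr1:63182691-63214543); the window at the start of that span (chr1:63273019-63273318) holds it 0 times and has a CpG count of 38. The CpG count was 13 in the Peg3 window, 26 in that of Plagl1, 17 in that of Mest, 15 in that of Zdbf2 and 13 in that of Meg3, against a median of 7 over all windows. A match describes the letters of the window and is not a measured binding site.

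H19 and Mest also carry microRNAs, which are shown because a count for the host gene does not measure them. The capitals mark the seed, bases 2 to 8.

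mmu-miR-675-5p, in an exon of H19: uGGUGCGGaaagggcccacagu
mmu-miR-675-3p, in an exon of H19: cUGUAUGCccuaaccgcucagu
mmu-miR-335-5p, within Mest but outside its exons: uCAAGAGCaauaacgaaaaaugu
mmu-miR-335-3p, within Mest but outside its exons: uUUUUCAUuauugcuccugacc

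No 2 of these 4 share a seed. Their precursor genes had 0 reads for Mir675 and 1 read for Mir335 over the 8 libraries, and polyadenylated RNA libraries are not made to capture such short RNAs. Mir675 also shares 84 exonic bases with H19 on the same strand. How reads of shared bases were counted is not given.

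Reads assigned to genes numbered between 8578575 and 12854367 per library. A normalised read count is given in CPM, reads per 1000000 of the library size after scaling by the trimmed mean of M values, and differences are log2 fold changes of Erbb3d/d over Erbb3f/f from edgeR's quasi-likelihood test, adjusted over all 14598 genes tested. Erbb3 itself did not fall in the libraries that carry the Erbb3d/d label. Its level was 13.9 ± 4.56 CPM there, against 9.64 ± 2.24 CPM in Erbb3f/f (mean ± SD of 4). The log2 fold change was 0.53 (edgeR adjusted p = 0.485). Counts per gene do not separate exons and cannot show whether the deletion took place, so each direction follows the labels only. All 15 stromal markers were detected, summing to 14659 to 18514 CPM in Erbb3f/f and 12488 to 16847 CPM in Erbb3d/d. Markers of other cells were present as well. Of 15 stromal markers 5 had a higher mean in Erbb3d/d, of 12 endothelial 11, of 11 immune 5, of 6 pericyte 3 and of 5 mesothelial 0. Of 16 epithelial markers 14 had a higher mean in Erbb3d/d (summed level 999 to 1619.9 CPM in Erbb3f/f, 1519 to 2487 CPM in Erbb3d/d), and of 12 smooth muscle markers 11 did (1865 to 3119.7 and 3030.7 to 6353 CPM). Endothelial markers summed to 254 to 535 CPM in Erbb3f/f and 268 to 559.8 in Erbb3d/d, immune markers to 1045 to 2576 and 1438 to 1853, pericyte markers to 105 to 301 and 127 to 234, and mesothelial markers to 48.8 to 163 and 28.1 to 126. No marker on these lists was at 0 in all libraries. At an unadjusted p under 0.05 in edgeR's test, 11 of 12 smooth muscle and 11 of 16 epithelial markers were higher in Erbb3d/d, and 0 were lower. Of 15 stromal markers 5 were lower and 0 higher, and of 10 immune markers tested 1 was lower and 0 higher. The endothelial, pericyte and mesothelial lists had 0 such markers. Over all genes the share was 11.6%, and no marker was called. In such bulk samples, fewer cells of a type and less RNA per cell cannot be told apart, and the part of these other cells in the differences below was not tested.

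The members spanned a wide range of levels in day 3 stroma. Compared per kilobase of merged exon length (GENCODE vM21, GRCm38), the order of the medians over the 8 libraries was Grb10 at 34.9 CPM per kb, Ndn at 26.2, Mest at 14.7, Plagl1 at 12.4, H19 at 6.14, Peg10 at 4.69, Meg3 at 4.17, Peg3 at 2.65, Zdbf2 at 0.121 and Dlk1 at 0.0619. Only 1 step in that order was free of overlap between libraries: the lowest Peg3 value was 2.35 CPM per kb and the highest Zdbf2 value 0.417 CPM per kb. All other neighbours in the order overlapped in their ranges. The merged exons of Meg3 measure 18089 bases in this annotation and those of H19 only 2460, so that Meg3 ranks lower per kilobase than by reads. Mest shares 912 bases, 23.1% of its exon length, with Copg2 on the other strand, and these non-directional libraries cannot tell reads of that stretch apart.

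Across the genotypes none of the 9 members tested was called. With edgeR and an adjusted p below 0.05, 0 of 14598 genes were called, 0% of them, and 0 of the 9 members. At an unadjusted p under 0.05 there was 1 member, Grb10, beside 11.6% of all genes; it was lower in Erbb3d/d, as were 4.97% of all genes, while 6.64% were higher. DESeq2 called 0 of the 8 tested members to which it gave an adjusted p (it gave H19 none), beside 1.78% of all genes. In no member did the 4 libraries of one genotype lie wholly above those of the other, which happened for 5.04% of all genes, 2.48% lower and 2.56% higher in Erbb3d/d. With the replicate number as a block, 0.356% of all genes and 0 members were called. Of the 9 members 6 had a log2 fold change below 0, beside 52% of all genes, and their median was -0.25, beside -0.01 over all genes. Dlk1 did not pass the filter on low counts and was not tested.

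**Figure D1:**
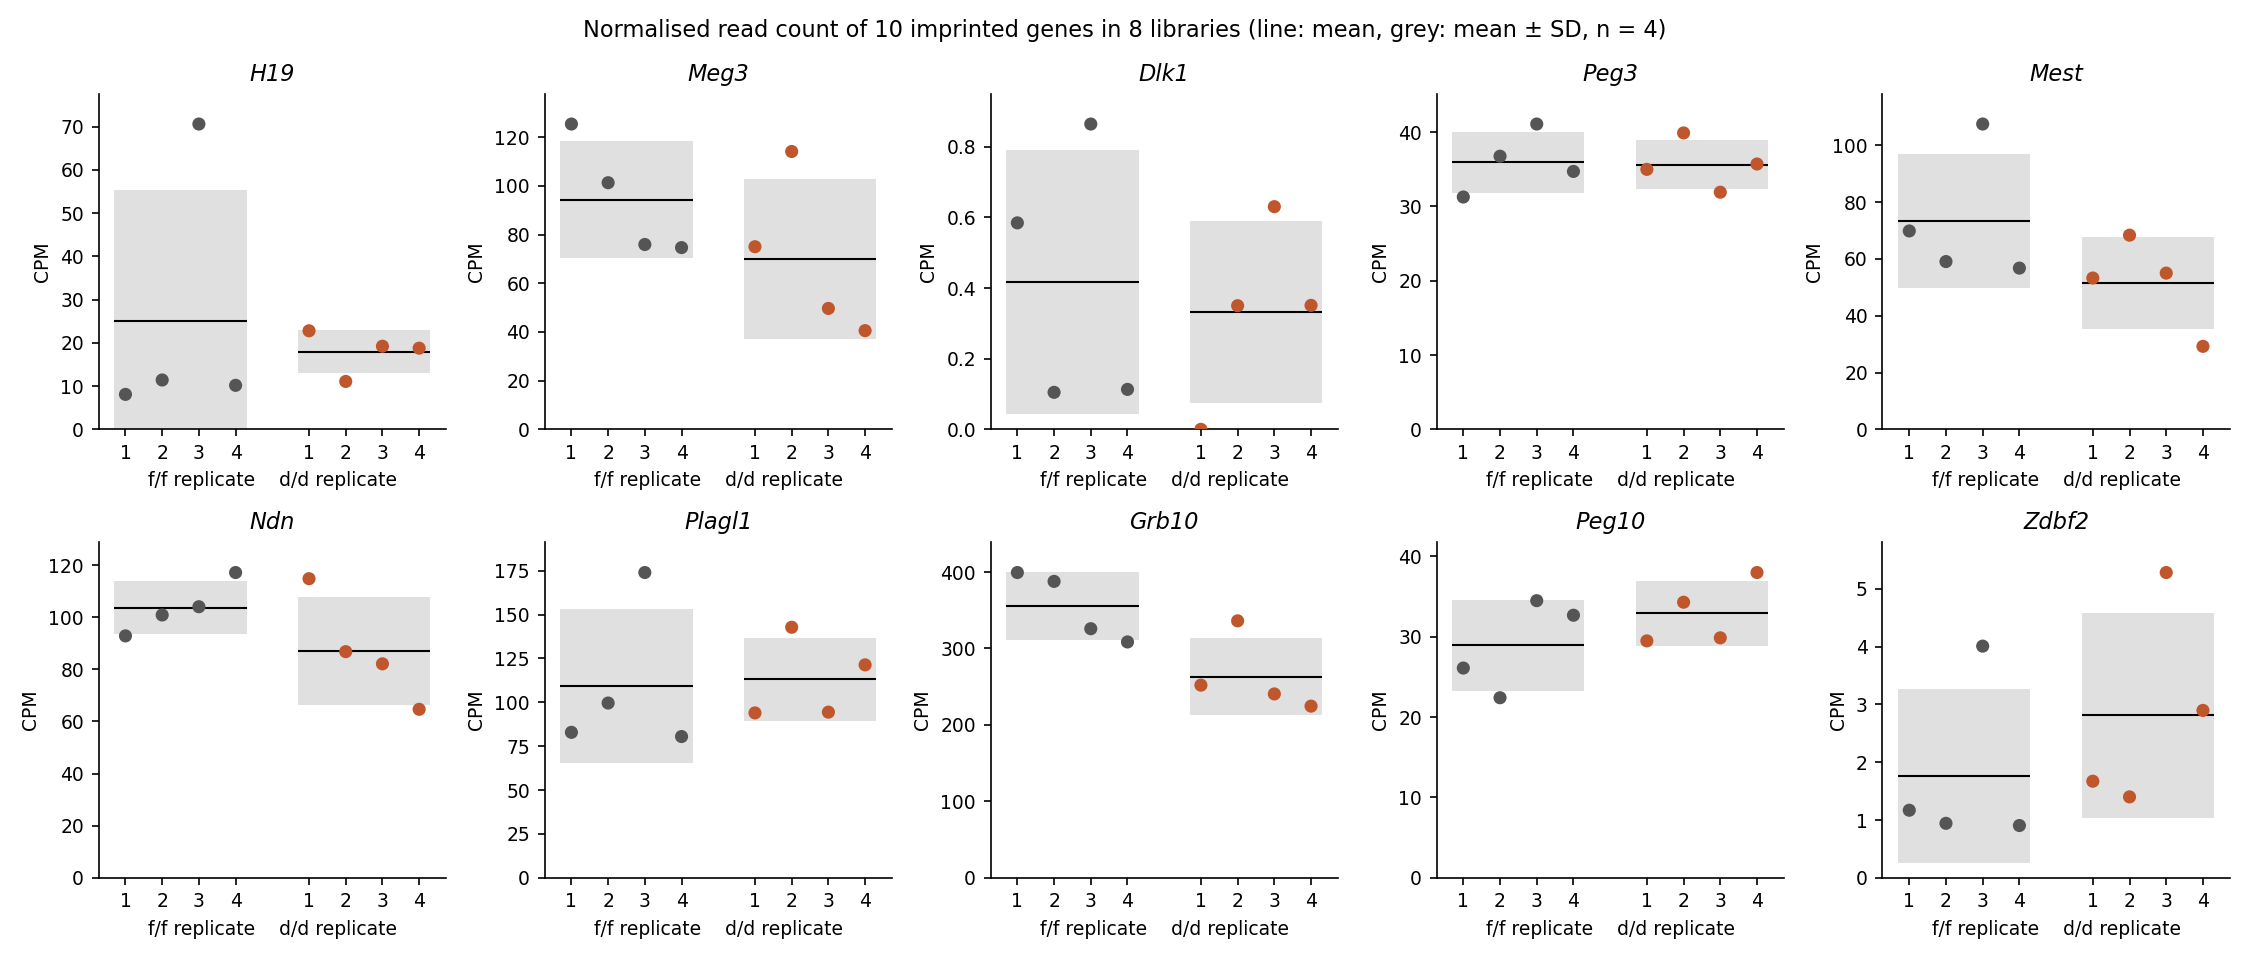
Normalised read count (CPM, linear axes from 0) of the 10 members in each library, replicates 1 to 4 of Erbb3f/f (grey points) and of Erbb3d/d (orange points); lines are means and grey bands mean ± SD (n = 4), drawn from 0 where they would go below it. H19 in Erbb3f/f replicate 3 stands at 70.6 CPM against 8.08 to 22.8 CPM in the other 7 libraries, and no member separates the genotypes.

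Grb10 had the highest CPM of the members and the lowest p-value. It encodes an adaptor protein that binds the activated insulin and IGF1 receptors and dampens their signal, and it is expressed from the maternal copy in most tissues. It lies on chromosome 11 at 11930508 to 12038683 (GRCm38, minus strand), with 22 merged exons. Its level was 399, 388, 326 and 309 CPM in Erbb3f/f replicates 1 to 4, and 252, 336, 241 and 225 CPM in Erbb3d/d replicates 1 to 4. Replicate 2 was the only Erbb3d/d library within the Erbb3f/f range, and the other 3 lay below every Erbb3f/f library. Mean ± SD over 4 libraries was 355 ± 44.9 CPM for Erbb3f/f against 263 ± 49.8 CPM for Erbb3d/d, and the log2 fold change came to -0.43 (SE 0.14). The adjusted p in edgeR's test was 0.311 (unadjusted 0.0102), that of DESeq2 was 0.141, and a two-sided exact permutation test on log2(CPM + 0.5) gave p = 0.0857, where 4 against 4 libraries cannot go below 0.0286. Without Erbb3d/d replicate 2 the log2 fold change was -0.57 (SE 0.12) and Grb10 was called (edgeR adjusted p = 0.0401). That fit called 259 of 14774 genes tested, and it left out the Erbb3d/d library that lay within the Erbb3f/f range. Without any other single library the log2 fold change was between -0.49 and -0.36 and Grb10 was not called.

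Dlk1 encodes a transmembrane protein related to the Notch ligands that holds back the differentiation of fat and other mesenchymal cells, and it was close to the limit of detection. The gene spans 109452823 to 109463336 of chromosome 12. Replicates 1 to 4 of Erbb3f/f gave 6, 1, 11 and 1 reads, and those of Erbb3d/d gave 0, 3, 8 and 4. The count of 0 allows a level of up to 0.295 CPM (3 reads, counting error only). The highest level, 0.864 CPM, was in Erbb3f/f replicate 3, and a difference between the genotypes was not detectable at this depth (exact permutation test, p = 0.8).

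H19, the maternally expressed long noncoding RNA next to Igf2, was far higher in 1 library than in the other 7. The gene, with 3 merged exons, spans 142575529 to 142578143 of chromosome 7, minus strand. Its level was 8.08, 11.4, 70.6 and 10.2 CPM in Erbb3f/f replicates 1 to 4, and 22.8, 11.1, 19.2 and 18.8 CPM in Erbb3d/d replicates 1 to 4. Erbb3f/f replicate 3 thus stood 6.94-fold above the median of the other 3 libraries of its genotype, on 899 reads. Apart from it, the Erbb3f/f libraries lay below Erbb3d/d replicates 1, 3 and 4. With all libraries the means were 25.1 ± 30.4 and 18.0 ± 4.93 CPM (SD, n = 4 each), and the log2 fold change was -0.49 (SE 0.68; edgeR adjusted p = 0.815; exact permutation p = 0.971). Without Erbb3f/f replicate 3 the Erbb3f/f mean was 9.89 ± 1.68 CPM (SD, n = 3) and the direction turned, and the log2 fold change was 0.86 (SE 0.26; edgeR unadjusted p = 0.00717, adjusted p = 0.394). That fit left out the library picked for its high H19 value, so its p-value for H19 is not an independent test. Of the 14728 genes tested in it, 1552 had an unadjusted p under 0.05.

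Erbb3f/f replicate 3 was also the highest library for Mest, Plagl1 and Peg3. Of the 9 tested members 4 had their highest value there, while it was the highest library for 12.5% of all tested genes, and no member had its lowest value there. Among all tested genes 15 stood at least as far above the other Erbb3f/f libraries in this library as H19 did, 0.103% of them. For Zdbf2 that share was 0.336%, for Plagl1 2.55% and for Mest 4.12%. Markers of other cells moved in this library too. The immune markers summed to 2576 CPM there against 1045 to 1853 CPM in the other 7 libraries, and 7 of the 11 had their highest value there. The mesothelial markers summed to 163 CPM against 28.1 to 126 CPM elsewhere, with 4 of 5 highest there. The smooth muscle markers were lowest there, at 1865 CPM, with 11 of 12 at their minimum, and the epithelial markers as well, at 999 CPM, with 9 of 16. Their part in the H19 value was not tested.

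**Figure D2:**
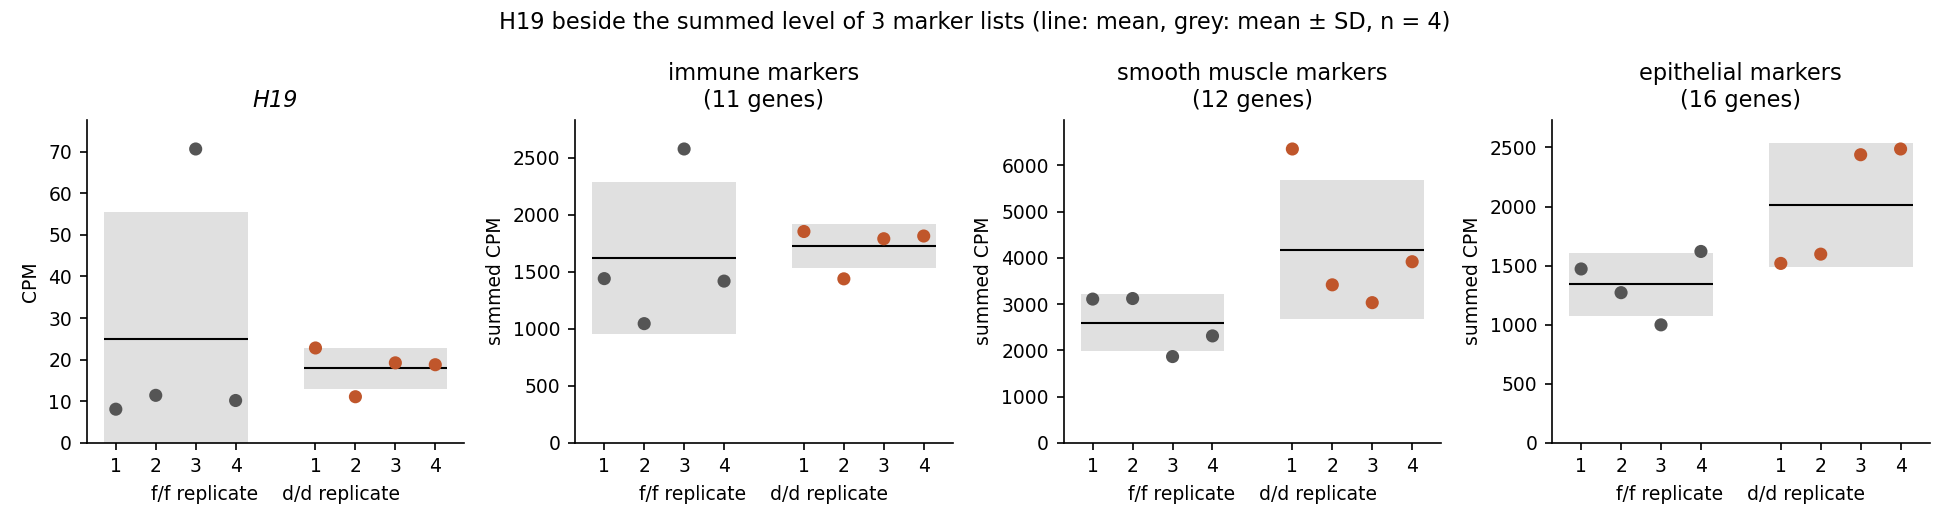
H19 (CPM) beside the summed CPM of the immune, smooth muscle and epithelial marker lists, by replicate of Erbb3f/f (grey) and Erbb3d/d (orange), on linear axes from 0; lines are means and bands mean ± SD (n = 4), drawn from 0 where they would go below it. The library with H19 at 70.6 CPM has the highest immune sum (2576 CPM) and the lowest smooth muscle (1865 CPM) and epithelial (999 CPM) sums.

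Plagl1 encodes the zinc finger transcription factor placed upstream in the imprinted gene network, and its mean level was nearly the same in both genotypes. It lies on chromosome 10 at 13060504 to 13131694. Its level was 82.9, 99.6, 174 and 80.5 CPM in Erbb3f/f replicates 1 to 4, and 93.95, 143, 94.4 and 121 CPM in Erbb3d/d replicates 1 to 4. Erbb3f/f replicate 3 was high and the other 3 Erbb3f/f libraries fell between 80.5 and 99.6 CPM, overlapping with Erbb3d/d. The means were 109 ± 44.0 and 113 ± 23.6 CPM (mean ± SD of 4 libraries), and the log2 fold change was 0.05 (SE 0.26; edgeR adjusted p = 0.960). The sign was not stable: it was 0.37 without Erbb3f/f replicate 3 and -0.08 without Erbb3d/d replicate 2.

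Peg3, a paternally expressed zinc finger protein known for its part in maternal behaviour and in cell death pathways, varied least of the tested members over the 8 libraries, by 1.31-fold from the lowest to the highest. It lies on chromosome 7 at 6703892 to 6730431. It had 31.3, 36.8, 41.1 and 34.7 CPM in Erbb3f/f replicates 1 to 4, and 35.0, 39.9, 31.9 and 35.7 CPM in Erbb3d/d replicates 1 to 4. The genotypes overlapped almost wholly, and the coefficient of variation was 11.4% over the Erbb3f/f and 9.23% over the Erbb3d/d libraries, beside medians of 14.2% and 15.9% over all tested genes. The log2 fold change was -0.02 (SE 0.12; edgeR adjusted p = 0.972), and leaving out 1 library gave between -0.07 and 0.06.

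Mest, paternally expressed and coding for a hydrolase-like protein of the endoplasmic reticulum that is abundant in growing mesenchyme and fat, had a lower mean in Erbb3d/d without passing the test. It lies on chromosome 6 at 30723547 to 30748465. Its level was 69.8, 59.1, 107 and 56.8 CPM in Erbb3f/f replicates 1 to 4, and 53.3, 68.4, 55.0 and 29.2 CPM in Erbb3d/d replicates 1 to 4. The highest and the lowest value, in Erbb3f/f replicate 3 and Erbb3d/d replicate 4, carried most of the difference, and the other 6 libraries lay between 53.3 and 69.8 CPM. The log2 fold change was -0.51 (SE 0.28; edgeR adjusted p = 0.510), and it was -0.27 without Erbb3f/f replicate 3 and -0.31 without Erbb3d/d replicate 4.

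Ndn encodes necdin, a MAGE family protein that restrains the cell cycle and is lost in Prader-Willi syndrome. It is a single-exon gene on chromosome 7 at 62346569 to 62350262. Its level was 92.8, 101, 104 and 117 CPM in Erbb3f/f replicates 1 to 4, and 115, 86.8, 82.1 and 64.7 CPM in Erbb3d/d replicates 1 to 4. Erbb3d/d replicate 1 lay within the Erbb3f/f range and the other 3 Erbb3d/d libraries below it. The log2 fold change was -0.25 (SE 0.16; edgeR adjusted p = 0.553). It was -0.41 without Erbb3d/d replicate 1 and -0.13 without Erbb3d/d replicate 4 (edgeR adjusted p = 0.330 and 0.885).

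Peg10, a gene derived from a retrotransposon that is needed to form the placenta, had 26.1, 22.4, 34.5 and 32.7 CPM in Erbb3f/f replicates 1 to 4, and 29.5, 34.3, 29.9 and 38.0 CPM in Erbb3d/d replicates 1 to 4. The gene spans 4747306 to 4760517 of chromosome 6. The ranges overlapped, and the log2 fold change of 0.18 (SE 0.16; edgeR adjusted p = 0.687) did not pass the test. It ranged from 0.092 without Erbb3f/f replicate 2 to 0.28 without Erbb3f/f replicate 3. Zdbf2, a paternally expressed zinc finger gene on chromosome 1 at 63273265 to 63314576, was low: replicates 1 to 4 of Erbb3f/f gave 12, 9, 51 and 8 reads, and those of Erbb3d/d 17, 12, 67 and 33. In CPM these were 1.17, 0.943, 4.01 and 0.905, and 1.67, 1.40, 5.28 and 2.90. As for H19, Erbb3f/f replicate 3 stood above the other libraries of its genotype, which all lay below every Erbb3d/d library. The log2 fold change of Zdbf2 was 0.66 (SE 0.59; edgeR adjusted p = 0.707), and leaving out 1 library moved it from 0.17 without Erbb3d/d replicate 3 to 1.49 without Erbb3f/f replicate 3 (edgeR adjusted p = 0.955 and 0.424).

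**Figure D3:**
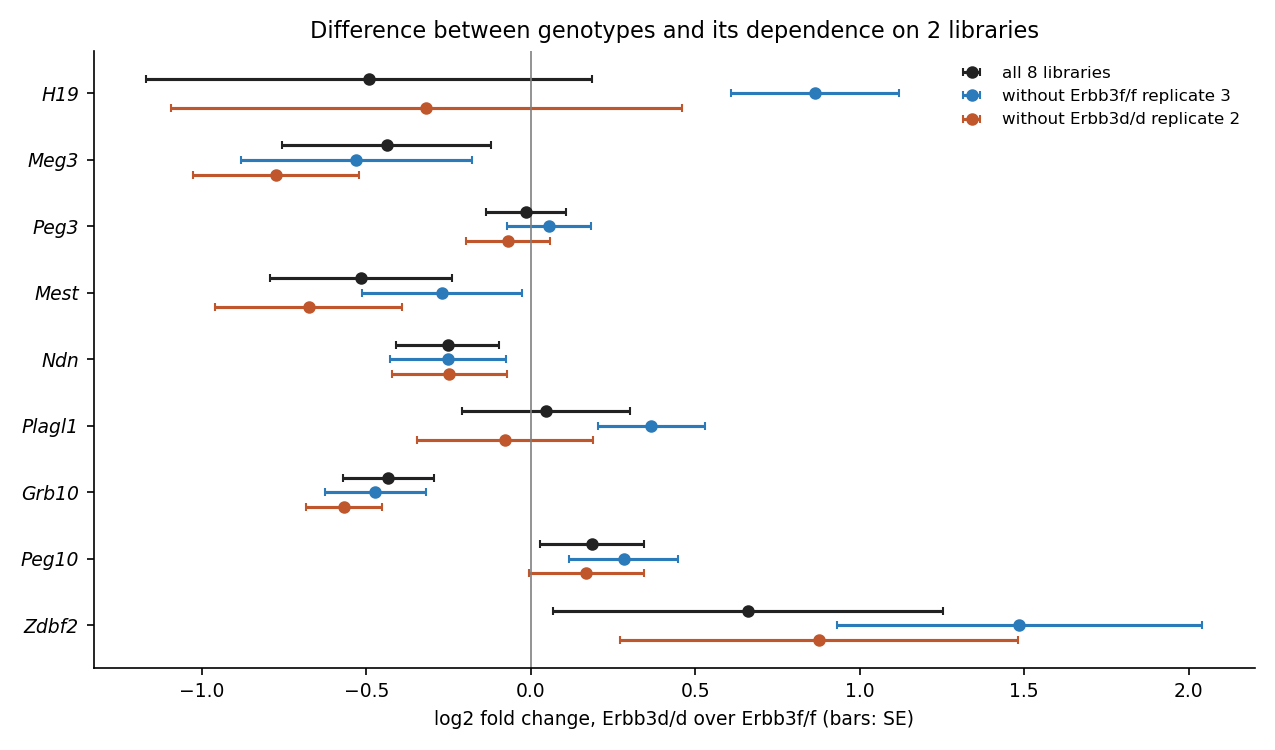
Log2 fold change of Erbb3d/d over Erbb3f/f (points) with its standard error (bars) for the 9 tested members, with all 8 libraries (black), without Erbb3f/f replicate 3 (blue) and without Erbb3d/d replicate 2 (orange). H19 moves from -0.49 to 0.86 without Erbb3f/f replicate 3, and Grb10 stays below 0 in all 3 fits.

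Meg3, the maternally expressed long noncoding RNA of the Dlk1 domain, followed its neighbours Rian and Begain on chromosome 12 closely. The gene spans 109541001 to 109571726, plus strand, with 8 merged exons. Its level was 125, 101, 75.9 and 74.6 CPM in Erbb3f/f replicates 1 to 4, and 74.98, 114, 49.6 and 40.5 CPM in Erbb3d/d replicates 1 to 4. The highest Erbb3d/d library, replicate 2, lay among the upper Erbb3f/f values, and replicates 3 and 4 were the lowest of all 8. The means were 94.3 ± 24.1 and 69.8 ± 32.9 CPM (mean ± SD of 4 libraries), and the log2 fold change was -0.44 (SE 0.32; edgeR adjusted p = 0.622). It was -0.77 without Erbb3d/d replicate 2 (edgeR adjusted p = 0.146), -0.26 without Erbb3f/f replicate 1 and -0.24 without Erbb3d/d replicate 4.

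Rian, another maternally expressed noncoding RNA downstream of Meg3 and the host of many small nucleolar RNAs, had 87.3, 66.5, 52.7 and 46.1 CPM in Erbb3f/f replicates 1 to 4, and 47.1, 67.0, 27.7 and 22.9 CPM in Erbb3d/d replicates 1 to 4. The 8 libraries fell in the same order for Rian as for Meg3. Across them Pearson's r of log2(CPM + 0.5) was 0.99 and Spearman's rho 1 (exact permutation p = 2.48e-05 for r, adjusted 0.00062 over 25 pairs of a member and a neighbour; for rho p = 4.96e-05, adjusted 0.00124). Without the 2 libraries farthest from the Meg3 median r was 0.974. Rian was also the gene most like Meg3 among 14518 genes searched. Begain, upstream of Dlk1, coding for a protein first described in neurons, followed Meg3 with r = 0.929 and rho = 0.857 (exact permutation p = 0.00176, adjusted 0.0220; for rho p = 0.0107, adjusted 0.0893), and r was 0.883 without the 2 farthest libraries.

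The rest of the domain was low. Mirg had 0 to 17 reads, Rtl1 0 to 12 reads and Dio3 15 to 54 reads per library. Dio3, which encodes the enzyme that inactivates thyroid hormone, did not pass the test (log2 fold change 0.33, edgeR adjusted p = 0.821), and its r with Meg3 was 0.381 (rho 0.262; exact permutation p = 0.354, adjusted 0.632; for rho p = 0.536, adjusted 0.838). Rian and Begain had log2 fold changes of -0.62 (SE 0.34) and -0.58 (SE 0.22), with edgeR adjusted p-values of 0.515 and 0.363.

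**Figure D4:**
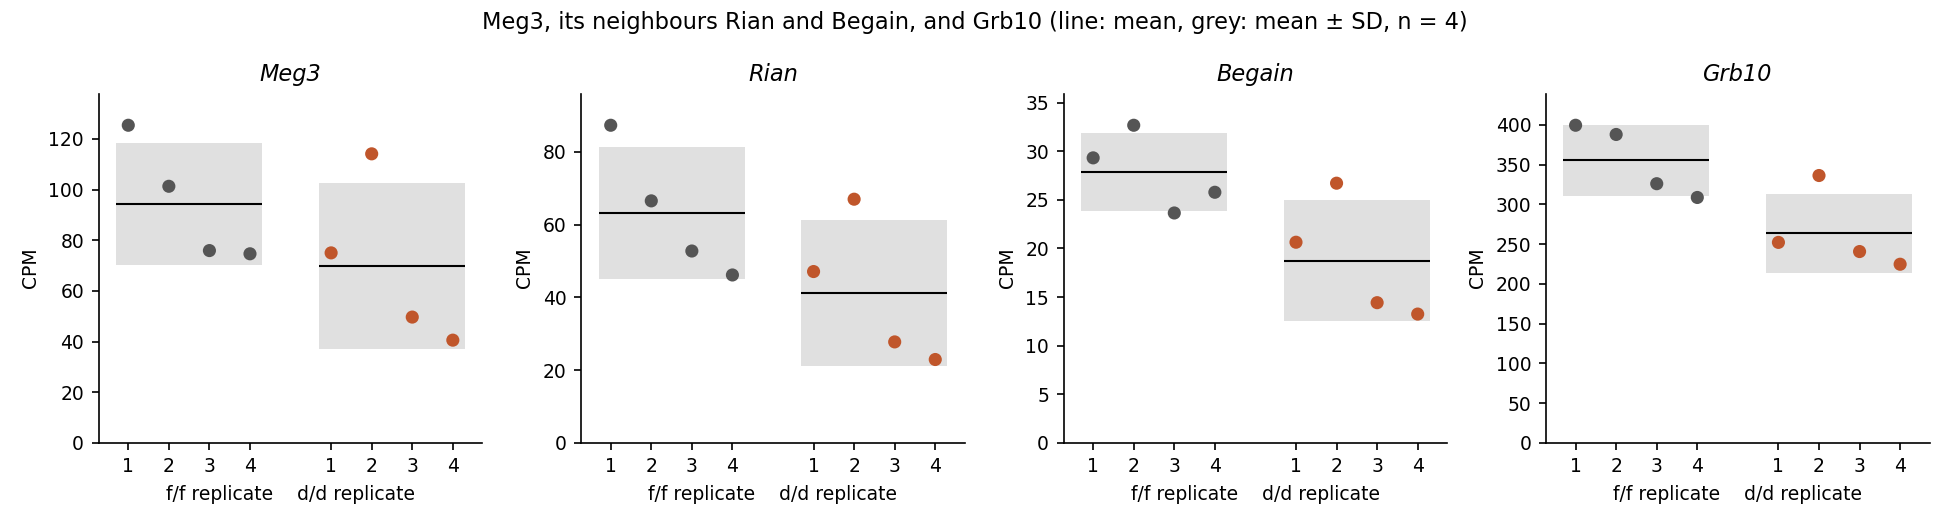
Normalised read count (CPM, linear axes from 0) of Meg3, its neighbours Rian and Begain, and Grb10 on another chromosome, by replicate of Erbb3f/f (grey) and Erbb3d/d (orange); lines are means and bands mean ± SD (n = 4). Meg3 and Rian order the 8 libraries alike, and in all 4 genes replicate 4 is the lowest and replicate 2 the highest of the Erbb3d/d libraries. Erbb3d/d replicate 4 is also the lowest of all 8 libraries for 20.4% of tested genes and for 4 of the 9 tested members. It has the lowest stromal marker sum (12488 CPM) and the highest epithelial one (2487 CPM), whose part here was not tested.

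Other members followed their neighbours less closely. Of the 25 pairs only Meg3 with Rian and with Begain had an adjusted p of r under 0.05. Over all pairs of tested genes 4.49% had an r of at least 0.7. Begain was less like Meg3 (0.929) than Scnn1a and Cpne5 were (0.982 each), which are not listed neighbours and were found by search. Grb10, on another chromosome, came close to Begain, with an r of 0.906 with Meg3. Plagl1 and its neighbour Phactr2 came next, with r = 0.845 and rho = 0.881 (exact permutation p = 0.00799, adjusted 0.0666; for rho p = 0.00724, adjusted 0.0893), and r was 0.760 without the 2 libraries farthest from the Plagl1 median. H19 and Igf2, the growth factor gene that shares its enhancers, had r = 0.729 and rho = 0.476 (exact permutation p = 0.0407, adjusted 0.239; for rho p = 0.243, adjusted 0.669), and r fell to 0.617 without the 2 farthest libraries. Without Erbb3f/f replicate 3 alone r was 0.478. Igf2 was low, at 8.96, 5.97, 16.8 and 7.35 CPM in Erbb3f/f replicates 1 to 4 and 16.3, 9.21, 7.41 and 8.51 CPM in Erbb3d/d replicates 1 to 4, with its highest value in the library that was highest for H19. Mest and Copg2, which overlap, had r = 0.0174 (rho 0.0238; exact permutation p = 0.962, adjusted 0.989; for rho p = 0.977, adjusted 1).

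Near Ndn, Peg12 went from 27.5 ± 2.57 CPM in Erbb3f/f to 18.5 ± 5.44 CPM in Erbb3d/d (mean ± SD of 4), Atp10a 47.9 ± 9.11 and 32.3 ± 7.91 CPM, and Ube3a, a ubiquitin ligase gene, 130.1 ± 21.0 and 115 ± 21.5 CPM. The means of all 3 were lower in Erbb3d/d, and none was called (edgeR adjusted p = 0.337, 0.309 and 0.676). Snrpn and Snurf, which share exons, are listed at 0 in every library. How reads of shared exons were counted is not given, so their count of 0 does not show that they were silent. Magel2 had 4 reads in 1 library. Near Peg10, Sgce, which shares its promoter region, had 18.4 ± 2.47 and 22.6 ± 4.15 CPM, and Asb4, expressed from the maternal copy, 3.79 ± 1.27 and 8.26 ± 3.29 CPM. Casd1, on the other side of Sgce, was level at 74.9 ± 0.308 and 70.8 ± 5.02 CPM. Of 47 neighbours listed 40 have a row in the tables, and 25 reached a mean of 1 CPM.

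The remaining neighbours above that level gave mean levels without a called difference. Near H19 they were Mrpl23 at 7.83 CPM in Erbb3f/f and 6.58 in Erbb3d/d, Lsp1 at 464 and 427 CPM, and Tnnt3 at 4.25 and 4.50 CPM. Beside Plagl1, Phactr2 had 148 and 160.2 CPM, Sf3b5 85.7 and 93.4 CPM, and Ltv1 31.4 and 30.4 CPM. Cobl, next to Grb10, had 40.2 and 33.2 CPM, and Copg2 6.52 and 7.32 CPM. None of these 8 was called, and their adjusted p in edgeR's test ran from 0.676 to 0.952. Around Peg10, Ppp1r9a had 71.9 and 80.6 CPM, Pon2 29.1 and 37.4, Pon3 12.2 and 14.0, and Tfpi2 3.08 and 2.28 CPM. Mkrn3 near Ndn had 3.58 and 4.30 CPM and Eef1b2 near Zdbf2 59.2 and 55.3 CPM. Of these 6 the one with the lowest adjusted p was Pon2, at 0.323 in edgeR's test.

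Coordination between the members was measured over the 36 pairs of the 9 tested members. The closest pair was Meg3 and Grb10, on different chromosomes, with r = 0.906 and rho = 0.952 (exact permutation p = 0.00265, adjusted 0.0955 over the 36 pairs; for rho p = 0.00114, adjusted 0.0411). Without the 2 libraries farthest from the Meg3 median r was 0.808. Next were Peg3 and Plagl1, with r = 0.859 and rho = 0.857 (exact permutation p = 0.00605, adjusted 0.109; for rho p = 0.0107, adjusted 0.193) and r = 0.716 without the 2 libraries farthest from the Peg3 median. The PLAGL1 motif in the Peg3 window is a match of letters only, and H19 and Peg10 had no window to search. Regulation of Peg3 by PLAGL1 was not tested. H19 and Zdbf2 had r = 0.717 and rho = 0.762 (exact permutation p = 0.0324, adjusted 0.389; for rho p = 0.0368, adjusted 0.265), with r = 0.703 without the 2 farthest libraries.

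No pair was called by Pearson's r after adjustment over the 36 pairs, and 3 had an unadjusted p under 0.05. An r of at least 0.7 in size, of either sign, was found for 3 pairs, 8.33%, beside 8.69% of the 106543503 pairs of tested genes, and all 3 were positive, beside 4.49% of all pairs at 0.7 or above. The median r of the members was 0.243, beside -0.0009 for all pairs, and 24 of the 36 were above 0. That shift rested on Erbb3f/f replicate 3: without it the median was -0.041 and 16 of the 36 were above 0. When each genotype's mean was taken off first, Meg3 with Grb10 (r = 0.939, adjusted p = 0.0232) and Peg3 with Plagl1 (r = 0.874, adjusted p = 0.0433) were called in the same exact permutation test, which treats the 8 deviations as exchangeable although those of a genotype sum to 0.

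The relations without Erbb3f/f replicate 3 are described here after their values were seen. Meg3, Grb10 and Mest went together in the 7 libraries left, with r = 0.917 for Meg3 and Grb10, 0.848 for Meg3 and Mest, and 0.740 for Mest and Grb10. H19 and Zdbf2 ran against them, with r = -0.889 for H19 and Grb10, -0.751 for H19 and Meg3, -0.769 for Grb10 and Zdbf2, and -0.761 for Meg3 and Zdbf2. None of the 36 pairs was called in these 7 libraries, where 7 had an unadjusted exact permutation p under 0.05. An r of at least 0.7 in size was found for 8 of the 36, 22.2%, beside 12.4% of all gene pairs in the same libraries. Maternally and paternally expressed genes were found on both sides.

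**Figure D5:**
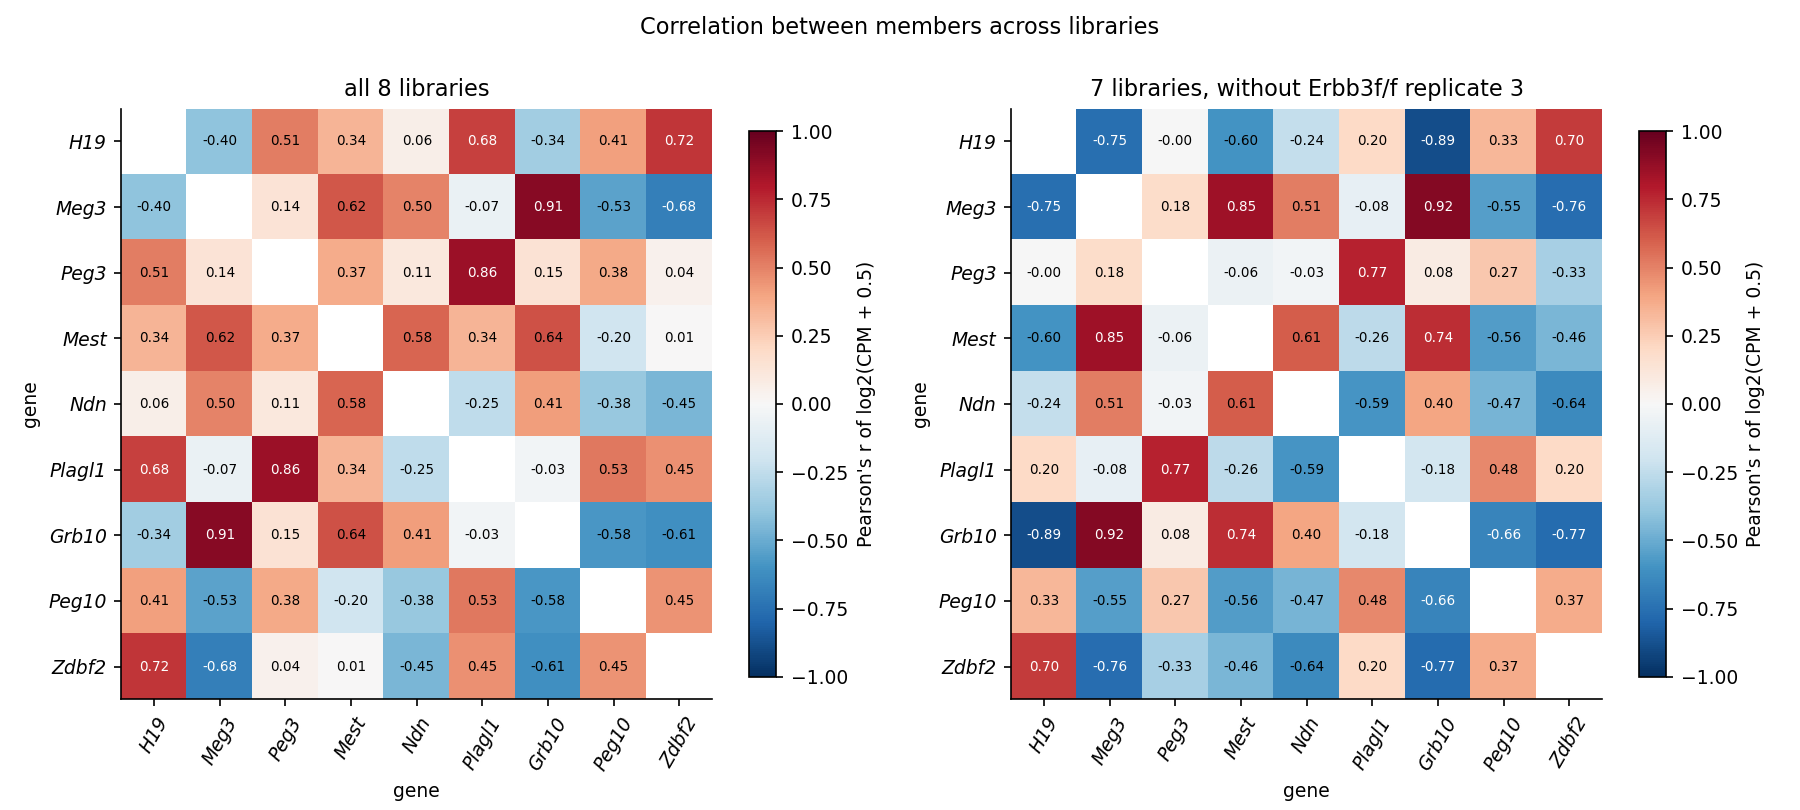
Pearson's r of log2(CPM + 0.5) between the 9 tested members (rows and columns, colour scale from -1 to 1), over all 8 libraries (left) and over 7 libraries without Erbb3f/f replicate 3 (right). Meg3 and Grb10 keep r at 0.91 and 0.92, while H19 and Mest go from 0.34 to -0.60.

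The genes most like each member over the 8 libraries were searched among 14518 genes with a mean of at least 1 CPM, and with so many genes and 8 libraries high values are common. For H19 they were Slc37a2 (r = 0.963), Apobec1 (0.959) and Atg13 (0.955), of which Apobec1 encodes a cytidine deaminase that edits RNA. After Rian, Meg3 was most like Scnn1a (0.982), a subunit of the epithelial sodium channel, and Cpne5 (0.982). Grb10 was most like Rims3 (0.987), Pla2g10 (0.985), a secreted phospholipase, and Hhip (0.980), the inhibitor that binds hedgehog ligands. For Mest they were Col11a1 (0.976), a fibrillar collagen chain, Ccdc166 (0.972) and Pygo1 (0.965), a Wnt pathway cofactor. Ndn was most like Ppard (0.977), a fatty acid receptor, Tmem29 (0.956) and Cnep1r1 (0.940), and Plagl1 most like Pnpla8 (0.958), Wdr5b (0.949) and Exoc1 (0.947). Peg3 was most like Tecpr1 (0.962), Suv420h1 (0.952), which encodes a histone methyltransferase, and Enc1 (0.925). Peg10 was most like 4732491K20Rik (0.954), Matn4 (0.946) and Rnf139 (0.942), and Zdbf2 most like Gm14023 (0.967), Aldh3b1 (0.965) and Osbpl8 (0.956). Some of these genes were low, with means over the 8 libraries of 1.15 CPM for Matn4, 1.85 for Gm14023, 2.16 for Rims3 and 2.69 for 4732491K20Rik. Spearman's rho for the genes named ran from 0.738 for Peg3 with Enc1 to 1 for Meg3 with Rian and Grb10 with Rims3.

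Other imprinted genes were read from a list of 51, of which 35 were tested. At an adjusted p under 0.05 edgeR called 0 of them. At an unadjusted p under 0.05 there were 5, or 14.3%, 4 higher and 1 lower, beside 11.6% of all genes. Their median log2 fold change was 0.16, with 24 above 0 and 11 below. Over all tested genes the median was -0.01, with 7000 above 0 and 7598 below. The 4 with higher means in Erbb3d/d were Nap1l5, a nucleosome assembly protein (5.87 ± 1.18 CPM in Erbb3f/f, 10.6 ± 3.20 in Erbb3d/d), Asb4, Ascl2, a transcription factor of the placenta (1.39 ± 0.675 and 3.03 ± 1.40 CPM), and Adam23 (0.556 ± 0.236 and 1.61 ± 0.703 CPM; SD, n = 4 each). The lower one was Peg12. Their edgeR adjusted p-values were 0.304, 0.305, 0.389, 0.319 and 0.337. The genotypes did not overlap for 3 of the 35, beside 5.04% of all genes: Nap1l5, Adam23 and, named after its values were seen, Trappc9, at 27.8 ± 1.26 CPM in Erbb3f/f and 23.2 ± 3.12 in Erbb3d/d.

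The machinery that keeps the imprint showed no called gene either. Of 21 such genes 19 were tested and 1 had an unadjusted p under 0.05, 5.26% beside 11.6% of all genes; their median log2 fold change was -0.02. That gene was Tet1, coding for an enzyme that oxidises methylated cytosine, with 45.1 ± 10.1 CPM in Erbb3d/d against 61.1 ± 12.7 CPM in Erbb3f/f (mean ± SD of 4; log2 fold change -0.44, edgeR adjusted p = 0.392).

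The receptor pathway on which Grb10 acts was read from 16 genes of insulin and IGF signalling, 15 of them tested. Of these 0 were called by edgeR and 4 had an unadjusted p under 0.05, 26.7% beside 11.6% of all genes. This list, like the other lists, was chosen with earlier results of these data known, so its share is not an independent test. The ligand Igf1 had 1404, 1574, 1825 and 1457 CPM in Erbb3f/f replicates 1 to 4, and 787, 1076, 709 and 417 CPM in Erbb3d/d replicates 1 to 4. All Erbb3d/d libraries lay below all Erbb3f/f libraries, and the log2 fold change was -1.07 (SE 0.24; edgeR adjusted p = 0.215; DESeq2 adjusted p = 0.00163). Its receptor Igf1r had 122.6 ± 12.96 and 148.7 ± 21.996 CPM, and the receptor substrates Irs1 and Irs2 had 242 ± 25.7 and 301 ± 9.47 CPM, and 31.8 ± 6.395 and 50.6 ± 20.1 CPM (SD, n = 4 each). These 3 means were higher in Erbb3d/d, with log2 fold changes of 0.28, 0.32 and 0.67 and edgeR adjusted p-values of 0.408, 0.293 and 0.397. Igf1 and Irs1 were the 2 of the 15 whose genotypes did not overlap, beside 5.04% of all genes: the lowest Irs1 value in Erbb3d/d was 289 CPM and the highest in Erbb3f/f 267 CPM.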

How the data were processed

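The authors deposited 1 table per library with raw read counts for each gene symbol, not normalised. The submitters' processing notes name HISAT2, SAMtools, HTSeq and StringTie and the builds mm10 and GRCm38. Versions, options and annotation are not given in the sources used here. Libraries were non-directional, per the labels' protocols. The 5 closing lines that name no gene (70.9% to 73.0% of all entries) were left out.

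The members and lists were chosen with earlier results of these data known. Counts were tested in R 4.3.3 with edgeR 4.0.16 (filterByExpr, TMM, robust quasi-likelihood fit, genotype as the only term, Benjamini-Hochberg adjustment, threshold 0.05). The SE of an edgeR log2 fold change was derived as its size divided by the square root of the quasi-likelihood F statistic. DESeq2 1.42.0 was an alternative. For single genes an exact permutation test (two-sided, 70 splits) was added. Correlations used log2(CPM + 0.5), two-sided exact permutation p-values over all pairings, and adjustment over each family of pairs. The fit was tested on simulated counts. Named genes are the members, listed genes with an unadjusted p under 0.05, neighbours with a mean of at least 1 CPM, and for each member the 3 genes with the highest r. Alternatives were 2 other scalings, no filter, DESeq2, a replicate block, and leaving out each library. For correlations they were another pseudocount (2), other scaling, and deviations from genotype means. No 2 libraries of a genotype agreed within sampling noise. Positions and exon lengths came from GENCODE vM21 (GRCm38) and sequences from RefSeq (GRCm38.p6), with Python 3.11.15.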

Additional observations from a re-analysis of the deposited data

Results flagged for a closer look

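Of 98 groups of 4 libraries examined (the members, the neighbours and list genes named, and the summed marker lists), 5 had 1 library far from the other 3, where 4.9 would be expected by chance at 1 in 20. Of the 20 groups of members, 2 did. H19 stood at 70.6 CPM in Erbb3f/f replicate 3, with the nearest other Erbb3f/f library at 11.4 CPM. Zdbf2 stood at 4.01 CPM in the same library, with the nearest at 1.17 CPM, on 51 reads. Atp10a was high in replicate 2 of both genotypes, at 61.5 CPM in Erbb3f/f (nearest 44.9) and 44.1 CPM in Erbb3d/d (nearest 29.0). The summed immune markers were low in Erbb3d/d replicate 2, at 1438 CPM, with the nearest Erbb3d/d library at 1789 CPM. The cause was not tested for any of the 5.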

How the results depend on the processing

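The number of genes called was 0 in edgeR with either other scaling and without the filter, 270 with DESeq2, 52 with the replicate number as a block, and 0 to 259 when 1 library was left out; the 259 came without Erbb3d/d replicate 2. Members called were 0 in all of these except without Erbb3d/d replicate 2, where 1 of 9 was called (range 0 to 1), beside 259 of 14774 genes. Of 117 alternative values of the members' log2 fold changes, 107 kept their sign and their side of the threshold, 8 changed sign and 1, Grb10, gained a call; the DESeq2 value of H19 kept its sign but has no adjusted p. H19 turned to 0.089 with the replicate block and ranged from -0.77 to 0.86 when 1 library was left out. Peg3 ranged from -0.069 to 0.056, Plagl1 from -0.079 to 0.366, Ndn from -0.41 to -0.13, Peg10 from 0.092 to 0.28 and Zdbf2 from 0.17 to 1.49. Pairs of members called by r numbered 0 under every alternative run except deviations from genotype means, which gave 2; leaving out 1 library gave 0 to 0. The replicate numbers could not be shown to pair the libraries. Deviations of same-numbered libraries correlated at 0.241, 0.173, 0.0999 and 0.152, and those of different-numbered libraries at -0.307 to 0.318. Erbb3f/f replicate 4 and Erbb3d/d replicates 2 and 3 correlated best with another number. Under the block Grb10, Meg3 and Mest had an edgeR unadjusted p under 0.05 (0.0018, 0.0173 and 0.0313), beside 2163 of 14598 genes. Adjusted p-values of these members were 0.108, 0.220 and 0.282, and no other tested member had an unadjusted p under 0.05. The cause of these changes was not tested. Dlk1, with 0 to 11 reads per library, could not be compared at this depth.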
